A study of Mus musculus with 4 samples.

Results

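The genes described here are the 3 nuclear lamin genes, Lmnb1, Lmnb2 and Lmna, and Lbr, which encodes the lamin B receptor. They were chosen by name, as the rows with these symbols, and they are 4 of the 23337 gene symbols counted. Their levels come from RNA-seq of Tomato-positive cells that were sorted by fluorescence from the olfactory epithelium of 4 mice. Each sample came from 1 mouse. Of these, 2 mice were control (Lmnb1+/-, K5Cre;Lmnb1 fl/+) and 2 were mutant (Lmnb1-/-, K5Cre;Lmnb1 fl/fl), and all 4 carried the Ai9 Tomato reporter in the R26 locus. Each mouse had been given methimazole at 50 mg/kg, a drug that strips the epithelium, and the tissue had regenerated for 4 weeks. The comparison asks what loss of the remaining Lmnb1 allele did to the family that builds the nuclear lamina.

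Several features limit these groups as a model. Cre was driven by the K5 promoter, which is active in horizontal basal cells, the reserve stem cells of this epithelium, so only these cells and their progeny recombined and the tissue was a mosaic. The sorted cells were therefore a mixture of stem cells, progenitors, neurons and supporting cells. The controls had already lost 1 allele of Lmnb1, and no wild-type sample enters the comparison. Mice of mixed background were handled as 2 experimental groups of 1 control and 1 mutant littermate, matched in sex, age and preparation within a group but, per the series' design text, not between groups. The number in a sample's name is its experimental group, and control 1 and mutant 1 were littermates.

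Lamins are intermediate filament proteins that form a meshwork under the inner nuclear membrane. Lamin B1 and lamin B2 are B-type lamins that keep a lipid (farnesyl) anchor at their C-terminal end and stay at the membrane, whereas Lmna gives the A-type lamins A and C by alternative splicing. Lbr is an inner membrane protein that binds B-type lamins and heterochromatin protein 1, tethers heterochromatin to the nuclear edge, and also carries a sterol reductase domain. Olfactory sensory neurons are known for nuclei in which heterochromatin is gathered in the interior, and Lbr has been linked to that arrangement.

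The site of the farnesyl anchor is written in the last codons of the coding sequence, and the coding ends printed here show which precursors carry that site. Whether a mature product keeps the anchor is not shown by the sequence. The last 45 coding bases of 3 transcripts, with the stop codon, are given from GENCODE M21 (mm10). All are on the minus strand. Capitals mark the 4 codons before the stop. The end of prelamin A lies within chr3:88482074-88482363, that of lamin C at chr3:88483297-88483341 and that of lamin B2 within chr10:80902859-80903214, where the first and the last cross an intron.
Lmna, prelamin A: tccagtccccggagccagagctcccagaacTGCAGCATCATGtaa
Lmna, lamin C: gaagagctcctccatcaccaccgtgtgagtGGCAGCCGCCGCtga
Lmnb2, lamin B2: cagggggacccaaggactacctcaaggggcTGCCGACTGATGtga
The capitals open with the cysteine codon TGC, to which the lipid is attached, in prelamin A and lamin B2 but not in lamin C. The coding sequence is 1998 bases for prelamin A and 1725 bases for lamin C, stop codon included. The deposited count of Lmna is 1 value for the whole gene, so lamin A and lamin C were not separated in these data.

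Lmnb1 lies on chromosome 18 at 56707813 to 56753424 on the plus strand (mm10). Its transcript has 11 exons, and the floxed exon, exon 2, covers 157 of 2843 bases, or 5.52%. Reads from the other exons of a recombined allele, where transcribed, still count toward Lmnb1, so the gene count does not measure recombination directly. Lmnb2 lies on chromosome 10 at 80901203 to 80918245, Lmna on chromosome 3 at 88480147 to 88509956 and Lbr on chromosome 1 at 181815335 to 181843046, all on the minus strand. No stretch of 50 bases was shared between any of the 4 genes, so their reads can be told apart. Lmnb1 shared none with any other gene, and the shares for Lmnb2 and Lmna were 0.118% and 0.0337%. The 3′ end of Lbr overlaps Dnah14 on the opposite strand by 440 exonic bases, and 8.41% of its stretches of 50 bases occur in Dnah14 or the small RNA gene Gm26004. The strand setting of the counting is not given in the sources used here, so Lbr counts are less certain than the others.

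Reads assigned to genes ranged from 14833396 in mutant 2 to 23704638 in control 1. The libraries also differed by experimental group. Alignments that were not unique numbered 67710764 in control 1 and 62182762 in mutant 1, compared with 10308536 in control 2 and 6757456 in mutant 2. In mutant 1, 1603 genes had no counts, compared with 5173 to 6053 in the other samples. Of its uniquely aligned reads, 39.4% were assigned to no counted gene feature, compared with 22.1% to 24.9%. Where only exons are counted, such reads can lie in introns as well as outside genes. A low background was therefore estimated for mutant 1 from 3751 genes that were silent in the other samples. It would account for 5.30 of the 326 Lmnb1 counts in that sample, or 1.63%, and for less than 0.5% of the counts of Lmnb2, Lmna and Lbr.

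Lmnb1, the targeted gene, was lower in both mutants than in either control. It was represented by 477 and 395 counts in the controls and by 326 and 149 counts in the mutants of groups 1 and 2. As CPM, the edgeR count scaled to a common library total, these were 20.6 and 18.8 CPM in the controls and 14.1 and 10.1 CPM in the mutants. The lowest control was thus above the highest mutant, a separation in this direction that 13.4% of the 15438 tested genes also had. Mean expression was 19.7 ± 1.27 CPM in control and 12.1 ± 2.82 CPM in mutant cells (SD, n = 2 each), and the spread between the mutants was larger than that between the controls.

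In a model with genotype and experimental group, the mutant level of Lmnb1 was 0.608 of the control level (95% interval 0.398 to 0.929), a log2 fold change of -0.72 (SE 0.31). The unadjusted p was 0.0222 in the edgeR likelihood-ratio test across all genes. The difference did not pass after Benjamini-Hochberg adjustment over all tested genes (edgeR adjusted p = 0.195). For comparison, 15.9% of tested genes had an unadjusted p under 0.05, and 5.58% passed after adjustment. In all, 8.43% of tested genes had a lower log2 fold change and 11.4% a smaller p than Lmnb1. The edgeR estimate of its biological coefficient of variation was 0.208, and those of the other 3 genes lay between 0.108 and 0.118.

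Lmnb1 was lower in the mutant within each pair of littermates. In experimental group 1 the mutant had 0.685 of the control level, a log2 ratio of -0.55 with a 95% counting interval of -0.75 to -0.34. In experimental group 2 the mutant had 0.539 of the control level, a log2 ratio of -0.89 with an interval of -1.16 to -0.62. These intervals cover counting error only and compare the libraries of 2 mice, not the genotypes. Both exclude 0 and they overlap each other.

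The other B-type lamin gene, Lmnb2, had no common direction in the littermate pairs. It had 79.5 CPM in control 1, 64.0 CPM in control 2, 71.3 CPM in mutant 1 and 69.5 CPM in mutant 2, from 1842, 1345, 1650 and 1027 counts. Both mutants lay between the controls. The fitted fold was 0.987 (95% interval 0.787 to 1.24), or -0.02 as log2 (SE 0.17, edgeR adjusted p = 0.987). The littermate ratios had opposite signs, -0.16 in experimental group 1 and 0.12 in experimental group 2 on the log2 scale. The sign of the fitted value also turned with the processing, to 0.01 without the filter on low counts, and an increase of more than 1.24-fold or a decrease below 0.787-fold is outside the interval.

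Lmna, the gene of the A-type lamins, was nearly equal in the controls and differed between the mutants. It had 80.0 CPM in control 1, 79.5 CPM in control 2, 101.7 CPM in mutant 1 and 73.3 CPM in mutant 2, from 1854, 1671, 2354 and 1083 counts. Mutant 1 was the highest and mutant 2 the lowest of the 4 samples, so the controls lay between the mutants. The fitted fold was 1.09 (95% interval 0.856 to 1.38), or 0.12 as log2 (SE 0.17, edgeR adjusted p = 0.849). The littermate ratios were 0.35 and -0.12 on the log2 scale, and without mutant 1 the fitted value was -0.13.

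Lbr was slightly higher in both mutants than in either control. It had 64.3 CPM in control 1, 72.4 CPM in control 2, 79.0 CPM in mutant 1 and 80.0 CPM in mutant 2, from 1490, 1522, 1829 and 1181 counts. Separation of the genotypes in this direction was found for 12.5% of tested genes. The fitted fold was 1.17 (95% interval 0.937 to 1.45), or 0.22 as log2 (SE 0.16, edgeR adjusted p = 0.575), so Lbr did not pass the threshold. The littermate ratios were 0.30 and 0.14 on the log2 scale. The mutants differed from each other by less than the controls did.

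**Figure D1:**
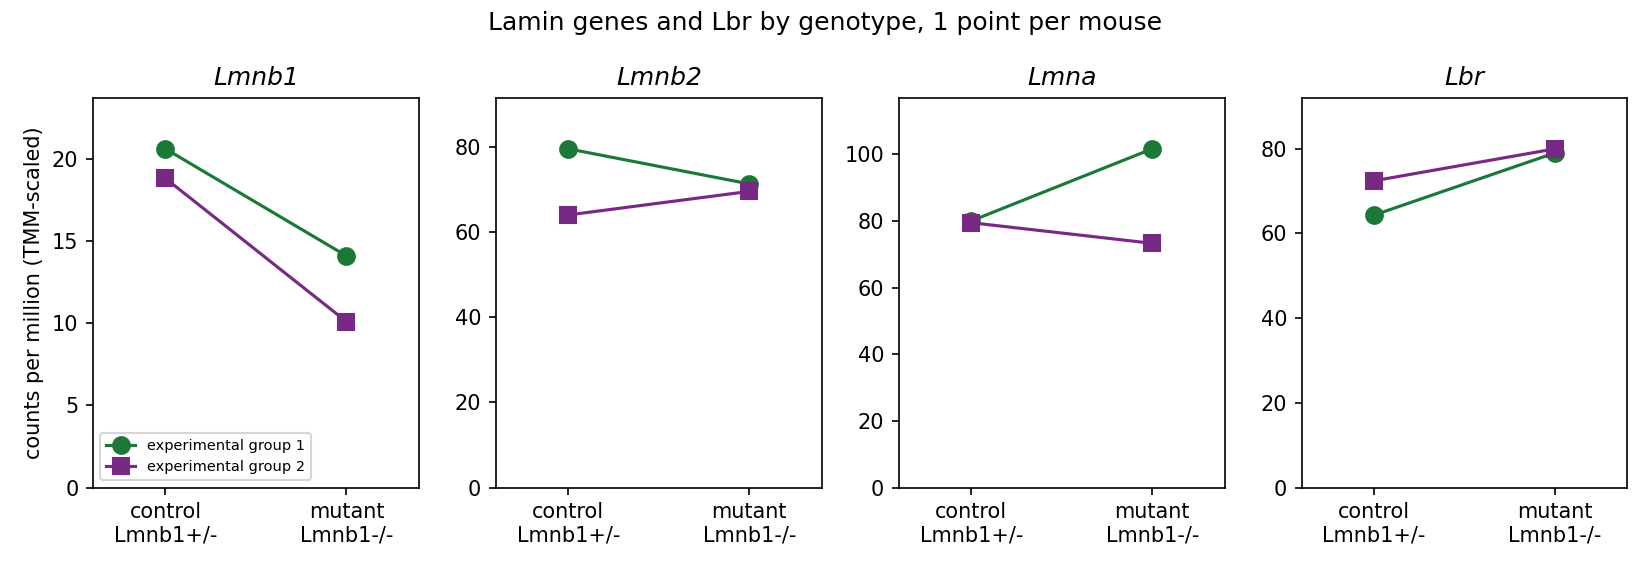
Expression of Lmnb1, Lmnb2, Lmna and Lbr in CPM (vertical axes from 0, each with its own scale) in control and mutant mice, with a line joining the littermates of an experimental group. Lmnb1 is lower in the mutant of both pairs, at 14.1 and 10.1 against 20.6 and 18.8, Lbr is higher in both mutants, and the lines of Lmnb2 and Lmna run in opposite directions.

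None of the 4 genes passed the threshold for genotype in the edgeR likelihood-ratio test, and the same count of 0 was obtained with the edgeR quasi-likelihood test and with DESeq2. Of the 4, 1 (Lmnb1) had an unadjusted likelihood-ratio p under 0.05. An exact permutation test over samples, two-sided, gave p = 0.333 for Lmnb1 and for Lbr, which is the smallest p that 2 against 2 samples allow, and p = 1 for Lmnb2 and for Lmna. The littermate ratios of experimental group 2 minus those of group 1 were -0.35 for Lmnb1, 0.28 for Lmnb2, -0.46 for Lmna and -0.15 for Lbr, compared with a median absolute gap of 0.32 over all tested genes. The gaps of Lmnb1 and Lmna were thus above that median and those of Lmnb2 and Lbr below it.

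**Figure D2:**
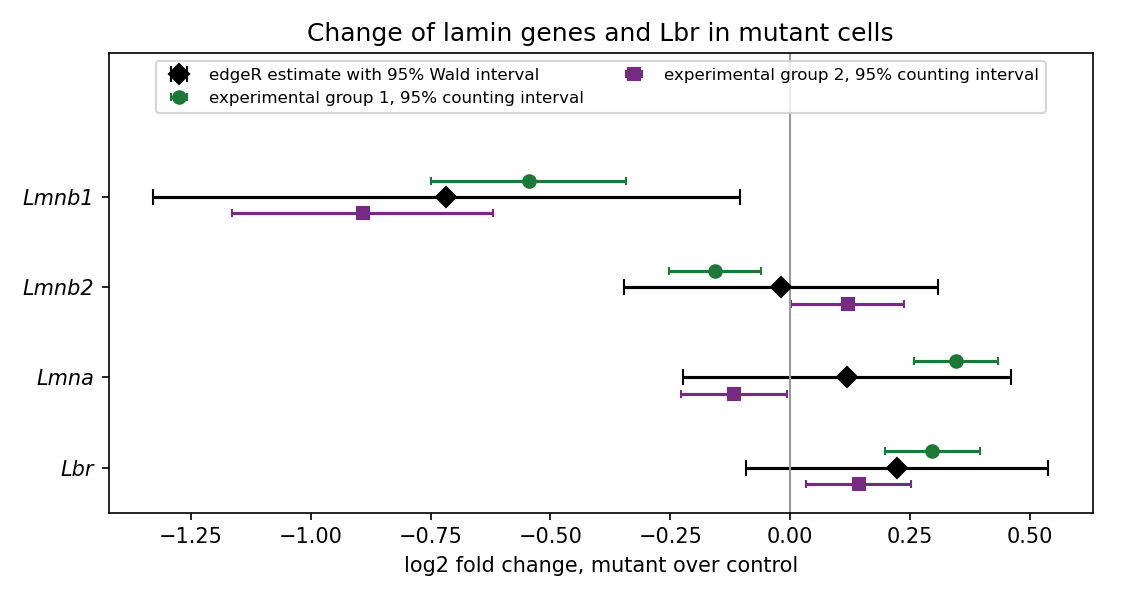
Log2 fold change of mutant over control (horizontal axis) for each gene, with the edgeR estimate and its 95% Wald interval as black diamonds and the ratios within experimental groups 1 and 2, with counting intervals, as circles and squares. The interval of Lmnb1 runs from -1.33 to -0.11 and those of Lmnb2, Lmna and Lbr include 0.

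Levels were compared between the genes per kilobase of exon. With the union of annotated exons as length, the mean over the 4 samples was 5.36 CPM per kilobase for Lmnb1 (3.41 to 6.95), 14.3 for Lmna (12.6 to 17.4), 15.5 for Lbr (13.5 to 16.8) and 16.6 for Lmnb2 (14.9 to 18.6). Lmnb1 was thus the least abundant of the family in these samples, highest in control 1 and lowest in mutant 2. Its range did not overlap those of the other genes. All 4 samples had lost at least 1 Lmnb1 allele, and the controls alone had 6.95 and 6.34. The rank of Lmnb1 in wild-type cells was not tested. The ranges of the other 3 overlapped, and these neighbours do not differ beyond their spread. With the longest coding transcript as length, Lmna was highest with 26.5 and Lbr and Lmnb2 followed with 21.1 and 20.1, and the range of Lmna (23.2 to 32.2) then lay above those of Lbr (18.3 to 22.8) and Lmnb2 (18.1 to 22.5). With coding length the values were 41.9, 39.4 and 38.5 and the ranges overlapped again. Lmnb1 was lowest with all 3 lengths, at 5.59 and 9.01 with the latter 2.

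The composition of the lamin transcripts differed between the genotypes in the share of Lmnb1. With the union of exons as length, Lmnb1 made up 17.7% and 18.2% of all lamin transcripts per kilobase in controls and 12.3% and 10.6% in mutants. Lmna made up 35.0% and 39.0% in controls and 44.9% and 39.0% in mutants, and Lmnb2 made up 47.3% and 42.8% in controls and 42.9% and 50.4% in mutants. The shares of Lmnb2 overlapped between genotypes, and Lmna had nearly the same share in control 2 and mutant 2. The sum of the 3 lamin genes, in CPM per kilobase, was 39.2 and 34.9 in controls and 38.8 and 32.2 in mutants. It followed the experimental group and overlapped between genotypes. The shares depended on the length. With the longest coding transcript, control shares were 46.0% and 50.5% for Lmna and 40.9% and 36.3% for Lmnb2, so their order turned. Lmnb1 then made up 13.1% and 13.2% in controls and 8.64% and 7.64% in mutants.

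Ratios of raw counts between genes of the same sample need no scaling to library size. Among reads of the B-type lamin genes, 20.6% were from Lmnb1 in control 1 (95% Wilson interval 19.0 to 22.3, 2319 reads) and 22.7% in control 2 (20.8 to 24.7, 1740 reads). The shares were 16.5% in mutant 1 (14.9 to 18.2, 1976 reads) and 12.7% in mutant 2 (10.9 to 14.7, 1176 reads). No interval of a mutant reached that of a control, and the mutants also differed from each other beyond counting error. Across all tested genes, 13.4% had a ratio to Lmnb2 that was lower in both mutants than in both controls.

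Expressed per read of each other gene, Lmnb1 was lower in both mutants throughout. The ratio of Lmnb1 to Lmnb2 was 0.259 and 0.294 in controls and 0.198 and 0.145 in mutants, that of Lmnb1 to Lmna was 0.257 and 0.236 in controls and 0.138 in both mutants, and that of Lmnb1 to Lbr was 0.320 and 0.260 in controls and 0.178 and 0.126 in mutants. On the log2 scale, mutants minus controls, these differences were -0.70, -0.84 and -0.94. Of the 3, the ratio to Lmna differed by the most similar amount in the littermate pairs, with -0.89 (counting interval -1.11 to -0.67) in experimental group 1 and -0.78 (-1.07 to -0.49) in group 2. The ratio to Lmnb2 differed by -0.39 (-0.61 to -0.17) and -1.02 (-1.31 to -0.72), where the intervals do not overlap, and the ratio to Lbr by -0.84 (-1.07 to -0.62) and -1.04 (-1.33 to -0.75). The exact permutation test over samples, two-sided and without the littermate pairing, gave p = 0.333 for each of these ratios (0.667 after adjustment over the 6 ratios). With 2 against 2 samples no smaller p is possible, so this test could not call a difference.

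The ratios that did not involve Lmnb1 overlapped between genotypes. Lmnb2 to Lmna was -0.01 and -0.31 in controls and -0.51 and -0.08 in mutants on the log2 scale, and the littermate differences were -0.50 and 0.24. Lmnb2 to Lbr was 0.31 in control 1 and between -0.20 and -0.15 in the other samples, so control 1 stood apart. Lmna to Lbr was 0.32 and 0.13 in controls and 0.36 and -0.12 in mutants. The differences of mutants minus controls were -0.13, -0.24 and -0.11, with exact permutation p of 0.667, 0.667 and 1 (0.8, 0.8 and 1 after adjustment).

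**Figure D3:**
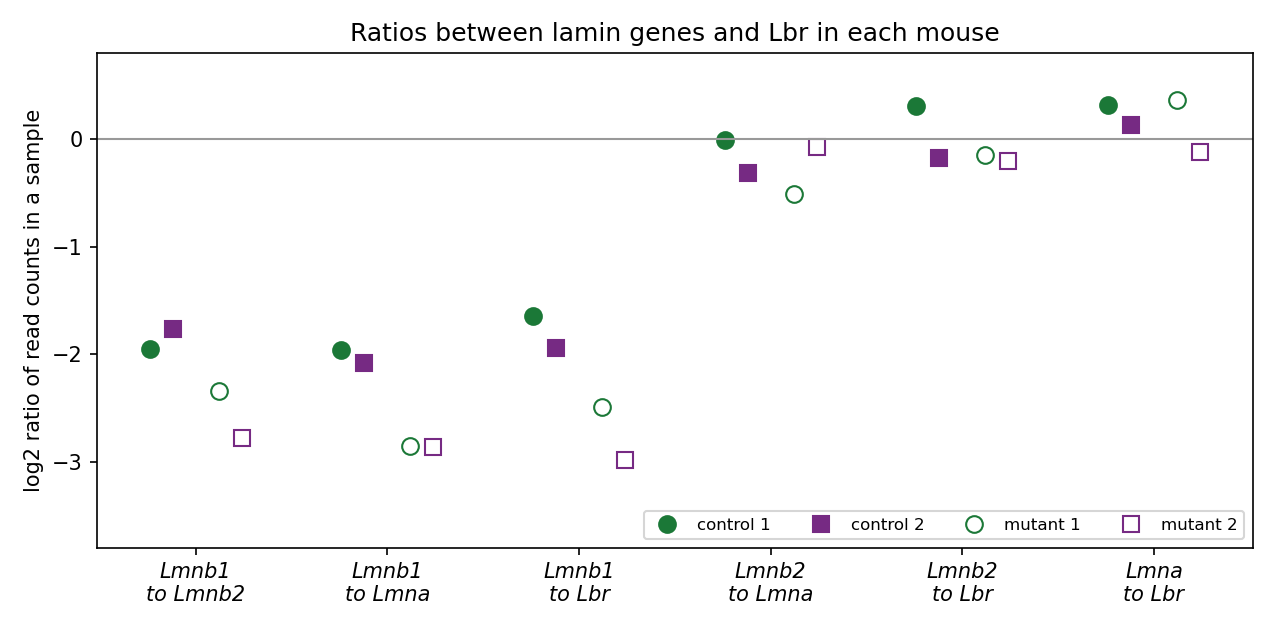
Log2 ratio of read counts between each pair of genes (vertical axis) in each mouse, with filled symbols for controls, open symbols for mutants, circles for experimental group 1 and squares for group 2. In the 3 ratios with Lmnb1 both mutants lie below both controls, and in the other 3 ratios the genotypes overlap.

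The experimental groups, for which the series' design text gives differences in treatment, parents, age and sex, were compared in the same model. None of the 4 genes passed for group in the edgeR likelihood-ratio test, the quasi-likelihood test or DESeq2, and 0 had an unadjusted likelihood-ratio p under 0.05, whereas 31.6% of tested genes passed. The log2 differences of group 2 minus group 1 were -0.30 (SE 0.31) for Lmnb1, -0.18 (SE 0.17) for Lmnb2, -0.24 (SE 0.17) for Lmna and 0.09 (SE 0.16) for Lbr, with edgeR adjusted p of 0.497, 0.449, 0.305 and 0.711. The 95% interval was -0.91 to 0.31 for Lmnb1 and -0.22 to 0.41 for Lbr.

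Lamins are finished by enzymes that add the farnesyl group and trim the tail, and 5 genes of this CAAX processing were tested. By the edgeR likelihood-ratio test 0 passed for genotype, as with the quasi-likelihood test and DESeq2. An unadjusted likelihood-ratio p under 0.05 was found for 1 (Icmt), where 15.9% of all tested genes had one. Fnta, a subunit of the farnesyltransferase, had 73.4 and 84.3 CPM in controls and 84.3 and 84.4 CPM in mutants. Zmpste24, the protease that matures prelamin A, had 65.6 and 98.2 CPM in controls and 55.0 and 104.1 CPM in mutants, where both samples of group 2 were above both of group 1 (log2 difference between groups 0.75, edgeR adjusted p = 0.000103, and for genotype -0.08, SE 0.17, adjusted p = 0.907). Icmt, which methylates the farnesylated cysteine, had 165 and 123 CPM in controls and 122 and 93.6 CPM in mutants (log2 fold change -0.42, SE 0.18, edgeR adjusted p = 0.203). Both mutants lay below both controls, by little in mutant 1. Zmpste24 and Icmt were picked out after their values were seen. The median log2 fold change of the 5 genes was -0.08, compared with -0.01 over all tested genes.

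Of 17 tested partners of the lamina at the inner nuclear membrane, 0 passed for genotype by the likelihood-ratio and quasi-likelihood tests and 1 by DESeq2, and 5 had an unadjusted likelihood-ratio p under 0.05 (Sun1, Sun2, Syne1, Tor1aip1 and Tmem43), where 15.9% of all tested genes did. The gene called by DESeq2 was Sun1, which spans the membrane and links the lamina to the cytoskeleton, and it was picked out after its value was seen. Sun1 had 364 and 226 CPM in controls and 249.5 and 159 CPM in mutants, where control 2 lay below mutant 1 (log2 fold change -0.53, SE 0.22, edgeR adjusted p = 0.160, DESeq2 adjusted p = 0.00680). Emd, the gene of the LEM-domain protein emerin, had 43.7 and 34.5 CPM in controls and 50.8 and 42.5 CPM in mutants (log2 fold change 0.26, SE 0.18, edgeR adjusted p = 0.550). The median log2 fold change of the 17 genes was 0.14, and 11 of them passed for experimental group, as did 31.6% of all tested genes.

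The partners of Lbr gave a similar picture. All 3 heterochromatin protein 1 genes had values above 0 for genotype, with a median log2 fold change of 0.12. By any of the 3 tests 0 passed, and 1 (Cbx5) had an unadjusted likelihood-ratio p under 0.05, where 15.9% of all tested genes did. Cbx1 had the smallest value (0.07, SE 0.20), and for it mutant 2 lay below control 2, at 44.1 and 49.5 CPM. For Cbx3, each mutant lay above its littermate. Cbx5 had 63.6 and 129.7 CPM in controls and 89.2 and 167 CPM in mutants (log2 fold change 0.43, SE 0.18, edgeR adjusted p = 0.157), with each mutant above its littermate. Of 10 genes of late sterol synthesis, 0 passed by any of the 3 tests, 2 (Tm7sf2 and Sc4mol) had an unadjusted p under 0.05, and the median was 0.18. Tm7sf2, which encodes a sterol reductase with the same activity as Lbr, had 22.3 and 28.2 CPM in controls and 31.5 and 37.0 CPM in mutants (log2 fold change 0.45, SE 0.22, edgeR adjusted p = 0.288), so that like Lbr it was higher in both mutants and did not pass.

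The RNA of cell type markers in the sorted mixture was examined next, and in bulk samples fewer cells of a type and less RNA per cell cannot be told apart. The marker lists were chosen with earlier results of these data known, so their counts of called genes are a description and no test of enrichment. All 14 tested markers of mature olfactory sensory neurons were lower in mutants at an adjusted p under 0.05, compared with 4.30% of tested genes. Their summed CPM was 19139 and 8604 in controls and 10526 and 2538 in mutants. Of 24 proliferation genes 8 were higher, compared with 1.28% of tested genes, and their sum was 468 and 474 CPM in controls and 739 and 768 CPM in mutants. In edgeR without experimental group in the model, 0 of either list passed, with 1 neuron and 3 proliferation genes at an unadjusted p under 0.05. With mutant 1 also left out 0 passed, and 14 and 3 had an unadjusted p under 0.05. The proliferation sums were separated between genotypes, as Lmnb1 was in the opposite direction and Lbr in the same direction. For the neuron markers, the sum was lower in control 2 than in mutant 1. This order turned when Omp, the most abundant of them, was left out. The sums of the remaining markers were then 9487 and 5341 CPM in controls and 5188 and 1627 CPM in mutants. The samples stood in the order of Lmnb1, from control 1 through control 2 and mutant 1 to mutant 2, in 5 of the 14 genes (Gnal, Cngb1, Pde1c, Pde4a and Stoml3), and mutant 1 was above control 2 in 8. Of 12 immature neuron markers 1 (Dcx) was lower in mutants, and 2 (Dcx and Ncam1) were called by the quasi-likelihood test and by DESeq2. They summed to 3287 and 2698 CPM in controls and 2645 and 2319 CPM in mutants, and without Tubb3 to 2047 and 2151 CPM in controls and 1664 and 1838 CPM in mutants. The sum had the order of Lmnb1 with Tubb3 but not without it, and 3 of the 12 genes had that order (Gap43, Ncam1 and Crmp1).

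Markers of the basal and supporting cells depended on the test. Of all 15438 tested genes, 197 (1.28%) were higher and 664 (4.30%) lower by the edgeR likelihood-ratio test. The quasi-likelihood test called 117 higher and 494 lower, and DESeq2 176 and 532. An unadjusted likelihood-ratio p under 0.05 was found for 15.9%. Among markers of horizontal basal cells, all 9 had log2 fold changes above 0 and 2 were higher (Krt15 and Egfr), with 1 called by the quasi-likelihood test, 7 by DESeq2 and, in edgeR without experimental group in the model, 0 (1 with an unadjusted p under 0.05). Their sums were 2581 and 2451 CPM in controls and 3653 and 3112 CPM in mutants. Among progenitor markers 2 of 8 were higher (Kit and Hes6), with 2 called by the quasi-likelihood test and 3 by DESeq2, and the sums were 337 and 346 CPM in controls and 468 and 511 CPM in mutants. The 9 markers of sustentacular cells, the supporting cells, summed to 6412 and 11328 CPM in controls and 8357 and 15019 CPM in mutants, and 0 passed by the edgeR likelihood-ratio test (2 with an unadjusted p under 0.05, Ermn and Gstm2, 1 by the quasi-likelihood test, Cbr2, and 3 by DESeq2, Cyp2g1, Cbr2 and Gstm2). RNA of markers from outside this lineage was also counted, although the cells had been sorted for Tomato. Whether this RNA came from cells or from free RNA was not tested. Leukocyte markers summed to 833 and 819 CPM in controls and 399 and 877 CPM in mutants with 0 of 15 called by any of the 3 tests and 0 with an unadjusted p under 0.05. Without Lyz2, which was highest in control 2 and mutant 2, the sums were 609 and 126 CPM in controls and 245 and 293 CPM in mutants, so that the controls were no longer alike. The lymphocyte genes Cd3e and Cd79a were under the filter, with no counts in at least 2 samples each. Of 13 stromal, endothelial and glial markers, 3 were lower (Col1a1, Col1a2 and Fabp7), with 3 called by the quasi-likelihood test and 4 by DESeq2. The sums were 1104 and 369.8 CPM in controls and 697 and 559 CPM in mutants. Dcn was highest in mutant 2 and was called higher by DESeq2 (edgeR log2 fold change 0.68, DESeq2 adjusted p = 0.00938). Without Dcn, the sums were 939 and 180 CPM in controls and 504 and 147 CPM in mutants, and each mutant was below its littermate. The part that cell composition has in the values of Lmnb1, Lmnb2, Lmna and Lbr was not tested.

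**Figure D4:**
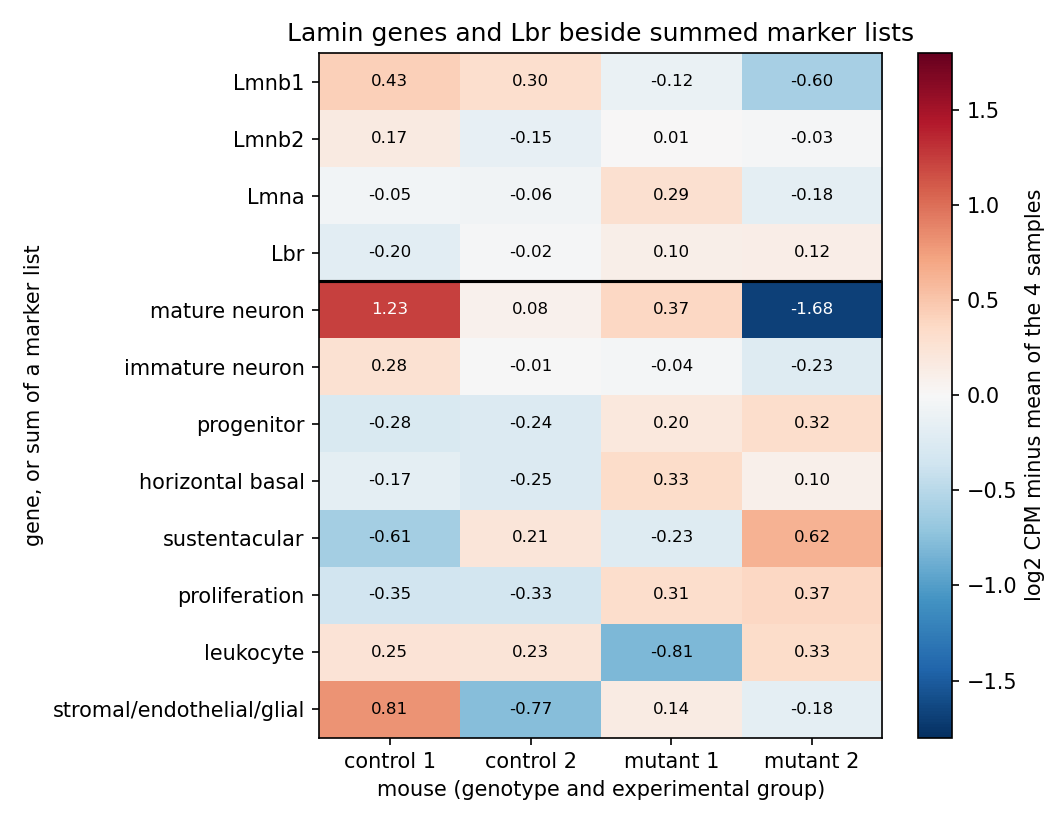
Log2 CPM minus the mean of the 4 samples (colour and printed value) for the 4 genes, above the line, and for the summed CPM of each marker list, below it, with 1 column per mouse. Lmnb1 is highest in control 1 (0.43) and lowest in mutant 2 (-0.60), as are the mature neuron markers (1.23 and -1.68), but control 2 and mutant 1 stand in opposite order in these rows, which holds for the sum with Omp included.

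For each gene the 3 tested genes with the closest pattern were identified by the root mean square difference of mean-centred log2 CPM over the 4 samples. Closest to Lmnb1 were Ttc18 (0.0215), Plekhm3 (0.0249) and Pacrgl (0.0269), where the median over all genes was 0.535. Closest to Lmnb2 were Dcaf11, Zfp653 and Llgl1, closest to Lmna were Prpf31, 2410017P09Rik and Coq3, and closest to Lbr were Fzd1, Actn4 and Capns1, with differences of 0.00735 for Fzd1 to 0.0261 for Capns1. None of the 4 genes was among the closest 3 of another. Over 4 samples and 15438 genes, close matches of this kind are a description only.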

How the data were processed

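RNA was depleted of ribosomal RNA and treated with DNase, and single-end reads were sequenced. The authors removed ribosomal reads with Bowtie2 (2.0.6), filtered by quality, aligned with TopHat2 (2.0.7) to mm10 and counted with HTSeq (intersection-nonempty). The deposited values are raw counts per gene symbol. The HTSeq version and annotation are not given in the sources used here. The 5 tally lines for unassigned reads were left out.

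The filter kept genes above 1 CPM in 2 or more samples. The test was that of edgeR 4.0.16 under R 4.3.3 (likelihood-ratio test, genotype plus experimental group, TMM factors, Benjamini-Hochberg threshold 0.05), after the study's methods. Its printed code, however, took the tally lines as genes. CPM are TMM-scaled, and littermate ratios use a prior count of 2. SE and intervals of fold changes are Wald values, and those of ratios and shares cover counting error only. A count of 3, the smallest taken as detected, corresponded to 0.127 to 0.202 CPM. Samples were paired by the group number in the labels, which per the study's methods marks a shared litter and preparation. Deviations of same-numbered samples from genotype means correlated with r = 0.52 across 15438 genes, which are not independent replicates. Each sample was 1 mouse. The script was tested on simulated data. Exon lengths and coordinates came from GENCODE M21, in which 98.0% of symbols were found. No table of protein sequences was used here, and no sequence of Lmnb1 is printed.

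The 4 genes and all gene lists were chosen with earlier results of these data known. Named genes were the 4 genes, list genes past the threshold or among the first of their list, and the 3 closest in pattern to each of the 4. Markers past the threshold in the mature neuron and proliferation lists are given by counts. Zmpste24, Icmt, and genes named for an unadjusted p or another tool's call (Sun1 among them) were named beyond this rule, after their values were seen. Alternatives were the quasi-likelihood test, DESeq2 1.42.0, no replicate block, RLE factors, other filters on low counts, thinning to 14833396 counts, tally lines kept, background of mutant 1 subtracted, each experimental group alone, each sample left out, and other gene lengths. Sums of marker lists without 1 gene were added after seeing the data.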

Additional observations from a re-analysis of the deposited data

Results flagged for a closer look

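The littermate pairs differed in sign for 2 of the genes and 2 of the ratios, with 1 mutant and 1 control per pair, and these differences between experimental groups were not tested. The log2 ratio of mutant to control was -0.16 in experimental group 1 and 0.12 in group 2 for Lmnb2, and 0.35 and -0.12 for Lmna. For the ratio of Lmnb2 to Lmna the mutant minus control difference was -0.50 and 0.24, and for Lmna to Lbr it was 0.049 and -0.26. Of the uniquely aligned reads of mutant 1, 39.4% were assigned to no counted gene feature, above the control samples, and no comparison uses these reads.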

How the results depend on the processing

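Lmnb1 and Lbr kept their direction under 15 alternatives each and did not pass the threshold in the 13 of them that have a test (each experimental group alone has none). With all samples, the log2 fold change of Lmnb1 was -0.75 to -0.69 and its adjusted p 0.160 to 1.00, and with 1 sample left out it was -0.97 to -0.45. For Lbr the values were 0.22 to 0.25, and 0.15 to 0.35 with 1 sample left out. Lmnb2 changed sign without the filter on low counts (0.0072), with the background of mutant 1 subtracted (0.0013) and in experimental group 2 alone (0.12), and ranged from -0.13 to 0.15 with 1 sample left out, positive without control 1 and without mutant 2 (0.028). Lmna changed sign in group 2 alone (-0.12) and ranged from -0.13, without mutant 1, to 0.39. The differences between experimental groups changed neither direction nor side of the threshold in any of 8 alternatives each.

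In edgeR without the replicate block, the counts were 0 lower and 6 higher genes (348 with an unadjusted p under 0.05), compared with 664 and 197 with the block. With 1 sample also left out, 0 to 5 were lower and 3 to 33 higher (33 without control 1, 27 without control 2, 3 without mutant 1 and 19 without mutant 2), where the lone sample of a genotype is assumed to vary like the others. The quasi-likelihood test called 494 lower and 117 higher genes, DESeq2 532 and 176, and edgeR with the tally lines kept, 625 and 185. None of the 4 genes changed its call. Of 312 alternative counts for the gene lists, 268 were within 1.5 times of the value given, 35 were lower and 9 higher. Mature neuron markers fell from 14 to 9 with DESeq2, 7 without the filter and 0 without the block, and proliferation genes from 8 to 5, 8 and 0.

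With 1 sample left out, the differences of Lmnb1 to Lmnb2, Lmna and Lbr ranged from -0.93 to -0.48, from -0.90 to -0.78 and from -1.19 to -0.69. Lmnb2 to Lmna ranged from -0.35 to 0.08, and turned to 0.018 without control 1, 0.085 without mutant 1 and 0.24 in group 2 alone. Lmnb2 to Lbr ranged from -0.48 to 0.0033, the latter without control 1, and Lmna to Lbr from -0.35 to 0.14, the latter without mutant 2, and was 0.049 in group 1 alone. Levels per kilobase moved with the length used, to 20.1 and 38.5 for Lmnb2, 26.5 and 41.9 for Lmna and 21.1 and 39.4 for Lbr with the longest coding transcript and coding length, and to 9.01 for Lmnb1 with coding length. The causes were not tested, except that a shorter length raises the level by construction. The 149 counts of Lmnb1 in mutant 2 limit the precision of its ratios in group 2, and 2 mice per genotype limit every test.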
